A study of Mus musculus with 36 samples.

Results

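The 10 genes described here are direct transcriptional targets of the tumour suppressor p53: Cdkn1a, Ccng1, Mdm2, Bax, Bbc3, Trp53inp1, Eda2r, Phlda3, Sesn1 and Zmat3. They were taken by symbol, as a set of well-known p53 targets, from the 22761 genes of the deposited expression table, and each symbol was found there once. This set and the other gene lists were chosen with earlier results of these data known. The study set kidney progenitor cells made from mouse embryonic stem cells (mESC) against the same cell types sorted from mouse embryonic kidneys ("ex-fetu" cells), and polyadenylated RNA was sequenced from 36 sorted samples in 9 groups of 4. The cell types were ureteric bud (UB), the epithelium that branches into the collecting ducts, nephron progenitors (NP), which form the nephrons, and stromal progenitors (SP), which form the renal interstitium. Each was taken from CD1 mice at embryonic day 11.5 (E11.5) and 12.5 (E12.5), and its mESC-derived counterparts were called eUB, iNP and iSP.

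The NP and iNP were sorted as ITGA8 high/PDGFRA low, and the SP and iSP as ITGA8 low/PDGFRA high, in both cases after removal of cells positive for CD31 (endothelium) or for EpCAM and RET (ureteric bud). The UB were sorted as RET+/EpCAM+ and the eUB as EpCAM+/mCherry+. Each ex-fetu sample thus stands for 1 litter, whose embryos were pooled, and each mESC-derived sample for 1 differentiation run. By the methods NP and SP were gated in the same sort, as were iNP and iSP, so different cell types can share a litter or run. The iNP and iSP came from the E14 mESC line and the eUB from the Sox9-mCherry line named in the labels, with a different differentiation protocol. Origin, culture, mESC line and mouse strain therefore cannot be told apart in any comparison of mESC-derived with ex-fetu cells. Line and protocol cannot be told apart from cell type between eUB and the iNP or iSP, whereas iNP and iSP shared both. For UB, the sample titles and the stated cell source give opposite ages; the titles, which the cell type label shares, were used, so the ages of the 2 ex-fetu UB groups are uncertain.

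Levels are normalised CPM, that is, counts set relative to the library total and the authors' library factors. The libraries held 13.004 to 52.5 M reads on genes (median 27.4 M), so that 3 reads were worth 0.0605 to 0.223 normalised CPM, below nearly all the levels given here. The markers of the labelled cell types were checked first. The 6 ureteric bud markers summed to 3022 to 3203 normalised CPM in E11.5 UB and 2645 to 2856 in eUB, and to at most 289 in every NP, SP, iNP or iSP library. The stromal markers summed to 2669 to 3330 in E11.5 SP and 3132 to 3309 in iSP, though Foxd1, a transcription factor of the renal stroma, stood at 410 ± 126 in E11.5 SP and 15.2 ± 3.67 in iSP (normalised CPM, SD, n = 4). The nephron progenitor markers summed to 1070 to 1165 in E11.5 NP and 368 to 634 in iNP, where Six2, which maintains these progenitors, was at 139 ± 15.9 against 590.2 ± 35.7 in E11.5 NP (normalised CPM, SD, n = 4). The stromal markers summed to 524 to 795 in iNP, above the nephron progenitor sum in 3 of the 4 iNP libraries, and to 227 to 254 in E11.5 NP. The name iNP is kept as that of the labels.

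Some libraries stood apart from the others of their group. The E12.5 libraries numbered 1 of UB, SP and NP differed by more than 1 on the log2 scale from the mean of the other 3 in 1254, 1212 and 890 of 14221 genes, and iNP library 2 did so in 1055 and eUB library 1, the shallowest, in 780. The E12.5 UB library 1 also held stromal markers at a summed 579 normalised CPM (13.5 to 24.7 in the other 3), nephron progenitor markers at 287 (27.3 to 37.5) and endothelial markers at 94.2 (3.27 to 6.23). Its ureteric bud markers summed to 1678, against 2642 to 2780 in the other 3. In the E12.5 SP and NP libraries numbered 1, a list of 8 immediate early genes, which respond within minutes to stimulation or handling, summed to 6477 and 1670, the highest of their groups, where the lowest were 1395 and 456. Counts of targets called in comparisons with E12.5 cells are therefore given with and without the libraries numbered 1, an alternative chosen after the data were seen.

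As background, p53 is a transcription factor that is made steadily and destroyed as fast, chiefly through the ubiquitin ligase MDM2. DNA damage, nucleolar stress and oncogenic signals block that destruction, and the protein then activates genes that stop the cell cycle (Cdkn1a), restore its own degradation (Mdm2), trigger apoptosis (Bax, Bbc3) or adjust growth and metabolism (Sesn1). Because p53 is controlled mainly as a protein, its mRNA level need not follow its activity. In the developing kidney the balance is known to matter, since loss of Mdm2 in nephron or ureteric progenitors releases p53 and impairs kidney growth.

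The p53 protein binds a response element made of a pair of 10-base motifs, here called p53 decamers, which may be separated by a spacer of 0 to 13 bases. The 300 bases around the start of each RefSeq transcript (250 before and 50 after, build GRCm38.p6) were searched for this motif, which reads the same on both strands. Of the 10 genes, 8 were in that promoter table, with 12 promoters, and Trp53inp1 and Zmat3 were not. A decamer was present in 1 promoter each of 5 genes, Cdkn1a, Mdm2, Ccng1, Bax and Sesn1, against 8.36% of all 32851 promoters. Only the Cdkn1a promoter at chr17:29090729-29090978 held a pair within the spacer limit, with a spacer of 12 bases, which 24 promoters in all (0.0731%) did. The 250 bases before the start of these 5 promoters are shown 5′ to 3′ on the strand of the gene with the decamers in capitals, because they are the promoters with a match. All 5 genes were higher in eUB than in E11.5 UB. Of the 3 genes whose promoters held no decamer, Eda2r and Phlda3 were higher too and Bbc3 was not called. A match describes the letters only, and no binding was measured.
Cdkn1a, chr17:29090729-29090978, + strand: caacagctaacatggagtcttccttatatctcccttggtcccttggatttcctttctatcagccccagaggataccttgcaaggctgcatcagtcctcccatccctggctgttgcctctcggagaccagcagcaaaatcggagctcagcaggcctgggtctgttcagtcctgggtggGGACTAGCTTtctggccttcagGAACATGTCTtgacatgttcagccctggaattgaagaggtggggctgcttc
Mdm2, chr10:117710759-117711008, - strand: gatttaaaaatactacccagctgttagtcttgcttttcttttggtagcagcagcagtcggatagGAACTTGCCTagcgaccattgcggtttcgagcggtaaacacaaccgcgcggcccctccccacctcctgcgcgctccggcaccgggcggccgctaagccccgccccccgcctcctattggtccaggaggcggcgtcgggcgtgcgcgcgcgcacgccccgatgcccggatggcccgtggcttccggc
Ccng1, chr11:40755287-40755536, - strand: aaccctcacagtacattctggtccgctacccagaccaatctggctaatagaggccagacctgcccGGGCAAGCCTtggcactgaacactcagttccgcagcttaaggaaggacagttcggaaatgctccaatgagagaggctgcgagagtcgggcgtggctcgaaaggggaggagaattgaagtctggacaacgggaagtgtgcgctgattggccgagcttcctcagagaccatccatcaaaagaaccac
Bax, chr7:45466899-45467148, - strand: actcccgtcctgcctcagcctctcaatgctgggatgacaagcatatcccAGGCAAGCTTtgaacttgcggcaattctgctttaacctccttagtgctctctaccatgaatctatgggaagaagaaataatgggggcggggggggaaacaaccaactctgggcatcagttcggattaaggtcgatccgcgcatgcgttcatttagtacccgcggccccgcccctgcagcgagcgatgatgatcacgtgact
Sesn1, chr10:41887189-41887438, + strand: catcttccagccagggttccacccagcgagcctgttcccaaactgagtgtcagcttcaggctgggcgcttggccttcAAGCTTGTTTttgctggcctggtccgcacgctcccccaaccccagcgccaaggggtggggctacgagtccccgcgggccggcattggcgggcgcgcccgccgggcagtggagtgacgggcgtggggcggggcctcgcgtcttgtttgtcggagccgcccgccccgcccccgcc

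The p53 targets were high in eUB. Of the 10 genes, 9 were higher in eUB than in E11.5 UB, none was lower, and Bbc3 did not pass the test (limma on log2 of normalised CPM + 1, adjusted p under 0.05 over all genes tested). In the same comparison 32.1% of 13956 genes were called higher and 28.5% lower, and the median log2 difference was 1.34 over the 10 targets and 0.02 over all genes. In those 9 genes all 4 eUB libraries also lay above all 4 E11.5 UB libraries, which held for 28.9% of the genes tested. The differences ran from 0.54 for Sesn1 to 3.73 for Eda2r on the log2 scale. In cells sorted in bulk, a change in the share of expressing cells and a change of RNA per cell cannot be told apart.

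**Figure D1:**
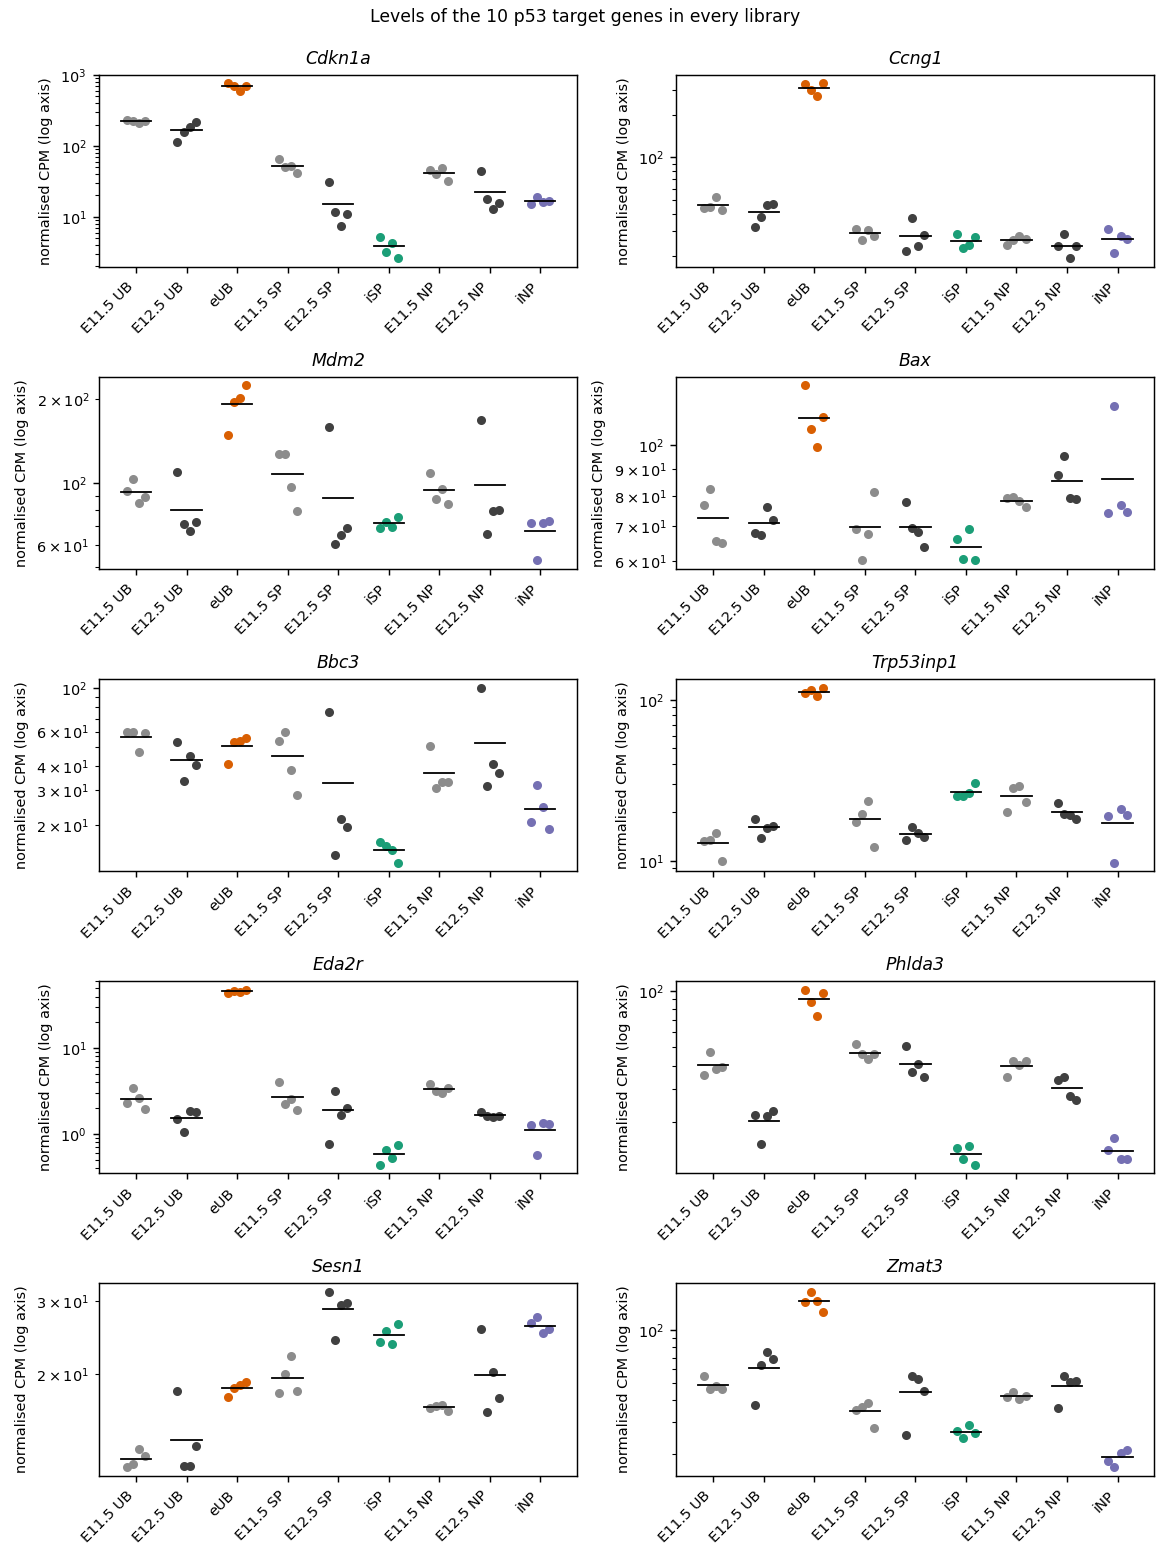
Normalised CPM (log axis) of each of the 10 p53 targets in the 4 libraries (points) and their mean (line) of each of 9 groups. In eUB (orange), all 4 libraries of 6 genes stood above every other library of the series, as did those of 6.18% of the 13956 genes, and those of Mdm2, Bax, Bbc3 and Sesn1 did not.

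Cdkn1a encodes the cyclin-dependent kinase inhibitor p21, which arrests the cell cycle. Its normalised CPM was 763, 704, 597 and 709 in the eUB libraries and 234, 225, 207 and 224 in E11.5 UB, 3.11-fold higher in the means. All eUB libraries lay above all UB libraries (log2 difference 1.63 ± 0.09 SE, limma adjusted p = 3.63e-07). The ex-fetu SP and NP were lower still, at 52.1 ± 9.70 (E11.5 SP) and 41.8 ± 7.58 (E11.5 NP, in normalised CPM, SD, n = 4). The lowest group was iSP, with 5.27, 3.19, 4.25 and 2.60 normalised CPM, below every library of the other 8 groups. The iNP libraries held 15.0, 18.9, 16.4 and 16.8, within the range of the E12.5 NP. From eUB down, Cdkn1a separated 4 levels without overlap: eUB, then UB of both ages, then the ex-fetu SP and NP with iNP, whose neighbours overlapped, and last iSP.

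Ccng1, which encodes cyclin G1, a partner of protein phosphatase 2A that acts on MDM2, varied little outside eUB. Its normalised CPM was 330.2, 299, 271 and 336 in eUB against 44.0, 44.5, 52.1 and 42.6 in E11.5 UB. This is 6.76-fold higher in the means (log2 difference 2.73 ± 0.09 SE, limma adjusted p = 2.84e-08). In the 6 groups of SP and NP the single libraries ran from 19.2 to 37.4, and every neighbour in the order of their means overlapped. UB of both ages, at 45.8 ± 4.25 and 40.8 ± 6.97 (normalised CPM, SD, n = 4), came second and overlapped each other.

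Mdm2, the feedback ligase, moved in the same direction with a smaller step. The eUB libraries held 149, 195, 203 and 224 normalised CPM and the E11.5 UB libraries 93.8, 104, 85.1 and 89.3, which is 2.07-fold higher (log2 difference 1.03 ± 0.12 SE, limma adjusted p = 5.88e-05). Outside eUB the group means ran from 67.4 in iNP to 108 in E11.5 SP, and each neighbour in that order overlapped. The E12.5 NP and SP libraries numbered 1 lay above the lowest eUB library, at 169 and 158 against 66.0 to 79.9 and 60.7 to 69.3 in the others of their groups.

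The apoptosis genes did not behave as a block. Bax, which permeabilises the mitochondrial outer membrane, rose 1.56-fold in eUB, from 77.0, 82.5, 65.5 and 65.0 normalised CPM in E11.5 UB to 130.4, 108, 99.5 and 113 (log2 difference 0.63 ± 0.11 SE, limma adjusted p = 0.000649). One iNP library reached 119, above 3 of the eUB libraries, so eUB and iNP overlapped. Bbc3, which encodes the BH3-only protein PUMA, was at 40.8, 53.1, 53.9 and 55.7 in eUB and 59.6, 59.5, 47.4 and 59.2 in E11.5 UB. The ranges overlapped, and the log2 difference of -0.15 had a 95% interval of -0.41 to 0.11 (limma adjusted p = 0.294). Trp53inp1, whose product promotes apoptosis and autophagy, was among the genes with the largest steps: 110, 114.6, 105 and 119 normalised CPM in eUB against 13.2, 13.5, 15.0 and 9.99 in E11.5 UB. The means differed 8.67-fold (log2 difference 3.03 ± 0.11 SE, limma adjusted p = 4.45e-08), and E11.5 UB was the lowest of the 9 groups.

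Eda2r, a receptor of the tumour necrosis factor family that binds ectodysplasin A2, was almost silent outside eUB. Its libraries ran from 0.435 to 4.04 normalised CPM in the other 8 groups, and in eUB they held 44.3, 46.1, 44.8 and 48.1. Against the 2.26, 3.42, 2.64 and 1.92 of E11.5 UB the mean was 17.9-fold higher (log2 difference 3.73 ± 0.13 SE, limma adjusted p = 2.93e-08). This was the largest ratio of means among the 10 genes in that comparison. Phlda3, which competes with AKT for membrane lipids and so restrains survival signalling, stood at 101, 87.2, 73.3 and 97.9 in eUB and 35.8, 47.2, 38.5 and 39.4 in E11.5 UB. The ratio was 2.24-fold (log2 difference 1.14 ± 0.12 SE, limma adjusted p = 2.66e-05).

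The remaining pair act on growth and RNA. Sesn1, whose product senses leucine upstream of mTORC1 and limits oxidative stress, rose from 11.9, 12.1, 13.1 and 12.6 normalised CPM in E11.5 UB to 17.6, 18.5, 18.8 and 19.1 in eUB (log2 difference 0.54 ± 0.08 SE, limma adjusted p = 0.000241). It was the only 1 of the 10 whose highest group mean lay in ex-fetu stroma: 28.8 ± 3.20 in E12.5 SP, followed by 26.2 ± 1.01 in iNP and 24.8 ± 1.31 in iSP (normalised CPM, SD, n = 4), all overlapping their neighbours. Zmat3, an RNA-binding zinc finger protein, stood at 144, 165, 147 and 127 in eUB and 55.0, 46.2, 48.3 and 46.7 in E11.5 UB, a ratio of 2.97 (log2 difference 1.55 ± 0.09 SE, limma adjusted p = 8.37e-07). Its lowest group was iNP, at 18.1, 16.8, 20.3 and 20.9, below every library of the other groups.

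Per kilobase of exon, Cdkn1a was the most abundant of the 10 in eUB, at 195 normalised CPM per kb, followed by Ccng1 at 88.1, Bax at 71.5 and Phlda3 at 57.7, with Eda2r at 7.78 and Sesn1 at 4.64 the lowest. In E11.5 UB the order of levels per kb began with Cdkn1a at 62.6, Bax at 46.0 and Bbc3 at 26.6, and Ccng1, at 13.04, was sixth. In iSP Bax led at 40.6 per kb and Cdkn1a, at 1.08, was ninth of the 10. The exonic lengths came from the GENCODE vM21 annotation of GRCm38, which places Cdkn1a on chr17:29090976-29100727 in 3553 exonic bases. Of the 10 genes, 2 share exonic bases with another annotated gene: Cdkn1a with an antisense transcript over 273 bases and Bax with Gm45808 on its own strand over 192 bases.

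In the mesenchymal cells more of the targets were lower than higher. In iSP against E11.5 SP, 5 of 9 targets were lower and 2 higher (limma), where 32.1% of 13916 genes were called lower and 35.5% higher. Eda2r, also called lower, is left out of this count because it passed the filter on low values (1 normalised CPM in at least 4 libraries) through the SP libraries alone. Cdkn1a fell by 3.47 on the log2 scale (± 0.19 SE, limma adjusted p = 5.81e-07), from 64.7, 51.1, 51.6 and 41.0 normalised CPM in E11.5 SP, so that the iSP mean was 7.34% of the SP mean. Phlda3 fell by 1.72 (± 0.10 SE, limma adjusted p = 8.88e-07), from 51.8, 46.1, 43.3 and 45.9 to 14.6, 12.6, 15.0 and 11.9. Bbc3 fell by 1.49 (± 0.21 SE, limma adjusted p = 0.000173), from 54.0, 59.7, 38.3 and 28.6 to 16.3, 15.5, 14.8 and 12.8, again with no overlap.

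Smaller decreases in iSP passed the test for Mdm2 (-0.55) and Zmat3 (-0.37), and increases for Trp53inp1 (0.58) and Sesn1 (0.33), all as log2 differences. The Zmat3 call was lost without the library factors (-0.28), in a fit of all 36 libraries and without iSP library 2 (-0.33). Ccng1 and Bax did not pass: their 95% intervals ran from -0.41 to 0.06 and from -0.34 to 0.11. Eda2r stood at 0.435 to 0.743 normalised CPM in iSP and 1.87 to 4.04 in E11.5 SP, a difference of -1.18 that the pseudocount of 1 damps.

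In iNP against E11.5 NP, 6 of the 10 targets were lower and 1 higher (limma), where 29.2% of 14064 genes were called lower and 35.5% higher, and the median log2 difference was -0.58 over the targets and 0.07 over all genes. Phlda3 went from 35.0, 42.3, 40.3 and 42.4 normalised CPM to 14.1, 16.5, 12.7 and 12.7 (log2 difference -1.45 ± 0.12 SE, limma adjusted p = 4.89e-06). Cdkn1a went from 46.2, 40.5, 48.7 and 31.7 to the iNP values above (log2 difference -1.25 ± 0.14 SE, limma adjusted p = 4.56e-05), and Zmat3 from 41.8, 44.9, 40.6 and 42.2 (log2 difference -1.12 ± 0.10 SE, limma adjusted p = 9.37e-06). For each of these 3 genes the iNP libraries lay below all the E11.5 NP libraries.

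Eda2r (-1.05), Bbc3 (-0.59) and Mdm2 (-0.48) were also lower in iNP and Sesn1 (0.63) was higher, as log2 differences. The pseudocount damps that of Eda2r, whose mean in iNP was 33.3% of that in E11.5 NP, against 35.0% for Phlda3. The Bbc3 call was lost without E11.5 NP library 1, at 50.8 normalised CPM against 30.9 to 33.1 in the other 3, without iNP library 1 or 4, and in a fit of all 36 libraries, which also lost that of Mdm2. Trp53inp1 missed the threshold at -0.56 (95% interval -1.06 to -0.05, limma adjusted p = 0.0519), with iNP library 2 at 9.77 against 19.1 to 21.1 in the others. It was called in 5 of the other fits with all libraries (-0.72 to -0.54) and without iNP library 2 (-0.32), iNP library 3 or E11.5 NP library 1. Ccng1 and Bax stayed near 0, with 95% intervals of -0.26 to 0.30 and -0.22 to 0.44. In both mesenchymal comparisons the globin and other erythroid markers, at a summed 69.0 to 1484 normalised CPM (E11.5 SP) and 12.2 to 70.6 (E11.5 NP), were at most 0.141 in iSP and iNP. The stromal marker sum moved the other way in iNP, to 524 to 795 from 227 to 254 in E11.5 NP, as did the endothelial sum, to 49.2 to 83.7 from 9.71 to 30.2, in cells gated against CD31. Pecam1, which encodes CD31, was at 2.49 to 4.23 in iNP and 0.585 to 2.59 in E11.5 NP. The ureteric bud marker sum was 124 to 289 in E11.5 SP and 70.5 to 78.7 in iSP. It went the other way in the NP, at 26.7 to 50.4 in E11.5 NP and 69.7 to 80.9 in iNP. The part of other cells in these results was not tested.

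**Figure D2:**
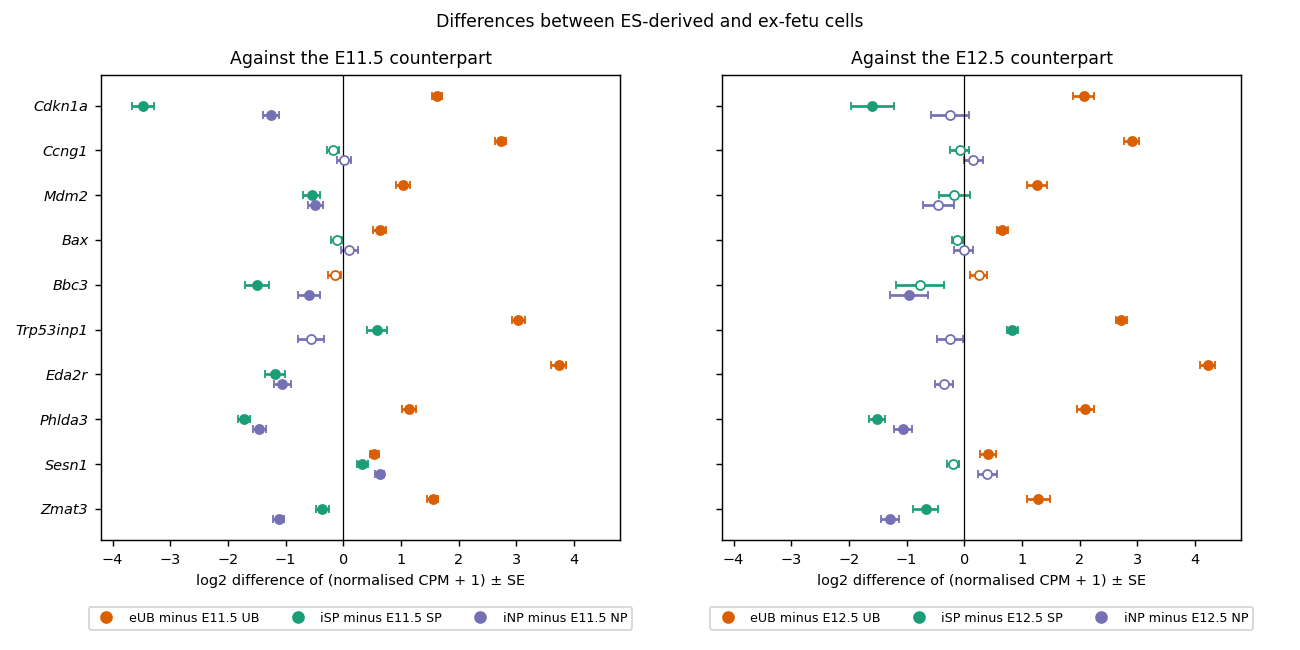
Log2 differences of normalised CPM + 1 (± SE, limma) between mESC-derived cells and their E11.5 (left) or E12.5 (right) counterparts for the 10 targets, with filled points for adjusted p under 0.05 and open points otherwise. The eUB differences (orange) lie right of 0 apart from that of Bbc3 against E11.5 UB, and for iSP (green) and iNP (purple) Cdkn1a, Phlda3, Bbc3, Eda2r, Mdm2 and Zmat3 lie left of 0 wherever they were tested.

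The test of whether the mESC-derived minus E11.5 difference itself differed between cell types was fitted on the 4 groups concerned. Between UB and SP, 9 of the 10 targets differed, all with the higher difference in UB, where 24.2% of 15163 genes were called in that direction and 23.3% in the other. Cdkn1a had a contrast of 5.10 ± 0.22 SE on the log2 scale (limma adjusted p = 4.4e-11) and Eda2r of 4.91, an order that turned with a pseudocount of 0.1 (5.40 and 6.12). Those of Ccng1 and Phlda3 were 2.90 and 2.86. Sesn1 did not pass, at 0.21 with a 95% interval of -0.04 to 0.45. Between UB and NP, 8 of the 10 targets differed, again with the higher difference in UB, where 22.3% of 15155 genes were called so and 24.9% the other way. Sesn1 and Bbc3 did not pass, at -0.09 (95% interval -0.31 to 0.13) and 0.44 (95% interval -0.06 to 0.95). The smallest called contrast, Bax at 0.53, was lost in 8 of the 16 fits that left out a library and under 2 other scalings.

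Between NP and SP, 2 targets had the higher difference in NP and 2 the lower, where 17.4% and 11.9% of 14846 genes were called. Cdkn1a fell further in stroma, by 2.22 ± 0.25 SE on the log2 scale (limma adjusted p = 4.64e-06), as did Bbc3, by 0.90, a call lost in 10 of the 16 fits that left out a library and in the fit of all 36 libraries. Trp53inp1 (-1.14) and Zmat3 (-0.75) had the lower difference in NP. These 3 contrasts share libraries and are not independent of each other.

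Against E12.5 cells, which share the mESC-derived libraries with the comparisons above, 9 of the 10 targets were higher in eUB than in E12.5 UB and none was lower, where 23.3% of 13872 genes were called higher and 21.2% lower. Eda2r differed by 4.22 ± 0.13 SE, Ccng1 by 2.90 ± 0.13, Trp53inp1 by 2.72 ± 0.09, Phlda3 by 2.10 ± 0.15 and Cdkn1a by 2.07 ± 0.18 on the log2 scale, with limma adjusted p-values between 1.68e-07 and 4.94e-05. Bbc3 was again not called, at 0.25 with a 95% interval of -0.10 to 0.59. Sesn1 was called at 0.41, which 4 of the other fits with all libraries and 6 of the 8 that left out a library did not call. Without the E12.5 UB library numbered 1 the count was again 9 higher, where 27.3% of 13514 genes were called higher and 24.2% lower.

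For the mesenchymal cells fewer targets were called at E12.5. In iSP against E12.5 SP, 3 targets were lower and 1 higher of the 9 tested, where 28.8% of 13903 genes were called lower and 33.3% higher, and Eda2r fell under the filter on low values. Cdkn1a differed by -1.59 ± 0.37 SE, Phlda3 by -1.52 ± 0.14, Zmat3 by -0.67 ± 0.21 and Trp53inp1 by 0.83 ± 0.10 on the log2 scale (limma adjusted p = 0.00432, 1.25e-05, 0.0208 and 9.55e-05). The Zmat3 call was lost without E12.5 SP library 2, 3 or 4 or iSP library 2. The E12.5 SP levels of Cdkn1a were 31.3, 11.8, 7.41 and 10.9 normalised CPM. In iNP against E12.5 NP, 3 targets were lower and none higher, where 18.7% of 14067 genes were called lower and 25.6% higher: Zmat3 at -1.29 ± 0.16 SE, Phlda3 at -1.07 ± 0.15 and Bbc3 at -0.96 ± 0.33 (limma adjusted p = 0.000141, 0.00034 and 0.0395). The Bbc3 call was lost in 4 of the other fits with all libraries and in 4 of the 8 that left out a library. Cdkn1a did not pass, at -0.25 with a 95% interval of -0.98 to 0.48, and turned to 0.13 without the libraries numbered 1. With those libraries left out, 3 targets were lower and 1 higher in iSP, where 32.6% of 13471 genes were called lower and 37.3% higher. Mdm2 in iSP then turned from -0.17 to 0.14, neither value called. In the same setting 4 targets were called in iNP, where 43.4% of 13811 genes were, Sesn1 joining at 0.52.

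Between the ex-fetu UB and mesenchymes, Cdkn1a had the largest difference of the 10. In E11.5 UB against the mean of E11.5 NP and SP, 6 of the 10 targets were called, where 56.4% of 14500 genes were, a like share. Cdkn1a was higher in UB by 2.25 ± 0.12 SE on the log2 scale (limma adjusted p = 2.02e-09), 5.33-fold over NP and 4.27-fold over SP in the means. Ccng1 (0.72), Bbc3 (0.49) and Zmat3 (0.35) were also higher in UB, and Trp53inp1 (-0.67) and Sesn1 (-0.50) lower. The Bbc3 call was lost in 7 of the 12 fits that left out a library, and those of Bbc3 and Zmat3 in the fit of all 36 libraries. The 7 macrophage markers stood in E11.5 UB at a summed 61.6 to 101 normalised CPM against at most 8.83 in E11.5 SP and NP, and their part in these results was not tested.

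At E12.5, UB against the mean of NP and SP gave 4 calls, where 40.3% of 14543 genes were called. Cdkn1a (3.25 ± 0.37 SE) and Ccng1 (0.66 ± 0.16) were higher in UB and Phlda3 (-0.77 ± 0.14) and Sesn1 (-0.75 ± 0.15) lower, as log2 differences. Without the libraries numbered 1 the count was 6, where 48.6% of 13585 genes were called, and the Cdkn1a difference 3.80.

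Between NP and SP the count of targets called depended on the age and the fit. In E11.5 NP against E11.5 SP, 0 of the 10 were called by limma, where 43.1% of 13655 genes were. At an unadjusted p under 0.05 there were 3, and edgeR and DESeq2 on the recovered reads also called 0. With no library factors, under upper-quartile scaling and in the fit of all 36 libraries 1 was called, and under quantile normalisation and with the replicate block 2. In E12.5 NP against E12.5 SP, 2 were called, where 34.8% of 13772 genes were: Trp53inp1 was higher in NP by 0.42 ± 0.13 SE and Sesn1 lower by 0.53 ± 0.17 on the log2 scale (limma adjusted p = 0.0289 and 0.0355). Of the 8 fits that left out a library, 5 lost the first call and 6 the second, which 3 other scalings also lost. Libraries of these 2 groups with the same number deviated together, with correlations of 0.54 to 0.70 across genes in all 4 pairs. With the replicate number as a block, 6 targets were called, where 57.8% of 13772 genes were: Bbc3 at 0.83 ± 0.12 SE, Cdkn1a at 0.56 ± 0.09 and Bax at 0.29 ± 0.07 joined on the NP side and Phlda3 at -0.41 ± 0.10 on the SP side (limma adjusted p = 0.000901, 0.00156, 0.0142 and 0.0123). Without the block, 5 were called in the fit of all 36 libraries, where 48.2% of genes were, and 4 without the libraries numbered 1, where 40.2% were.

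In the mESC-derived mesenchymes, iNP against iSP, 4 of 9 tested targets were called, where 30.7% of 14052 genes were, and Cdkn1a was higher in iNP by 1.91 ± 0.17 SE on the log2 scale (limma adjusted p = 2.54e-05). Bbc3 (0.64) was also higher in iNP, and Trp53inp1 (-0.66) and Zmat3 (-0.46) lower. The Trp53inp1 call was lost with no library factors and without iNP library 1 or 4 or any of the 4 iSP libraries, and the calls of Bbc3 and Zmat3 in the fit of all 36 libraries. In eUB against the mean of iNP and iSP every target counted was called, Sesn1 lower and the others higher, where 62.9% of 14733 genes were called. Eda2r is not counted, because it passed the filter on low values only through the eUB libraries. It stood at 44.3 to 48.1 normalised CPM in eUB, 0.557 to 1.32 in iNP and 0.435 to 0.743 in iSP. Cdkn1a differed by 6.24 ± 0.13 SE, Ccng1 by 3.52 ± 0.10, Zmat3 by 2.64 ± 0.09 and Sesn1 by -0.44 ± 0.06 on the log2 scale (limma adjusted p between 3.88e-13 and 4.66e-05).

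From E11.5 to E12.5 few targets changed, and the count depended on the libraries numbered 1. In UB only Phlda3 was called of the 10, lower at E12.5 by 0.96 ± 0.14 SE on the log2 scale (limma adjusted p = 0.00163), where 26.5% of 13772 genes were called. Its normalised CPM was 21.7, 15.2, 21.4 and 22.9 at E12.5, below every E11.5 UB library. In SP 2 were called, where 8.52% of 13633 genes were: Cdkn1a was lower by 1.88 ± 0.36 SE and Sesn1 higher by 0.53 ± 0.13 (limma adjusted p = 0.0131 and 0.0391). The Cdkn1a call was lost without E12.5 SP library 4 (-1.79) and the Sesn1 call in 6 of the 8 fits that left out a library and 3 of the other fits. The ureteric bud markers summed to 124 to 289 normalised CPM in E11.5 SP and 81.1 to 116 in E12.5 SP, and their part was not tested. In NP Eda2r was the only call, lower by 0.70 ± 0.11 SE (limma adjusted p = 0.0101), where 6.34% of 13414 genes were called. The labels leave the ages of the UB groups uncertain, so the direction of the Phlda3 difference with age rests on the sample titles.

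Without the E12.5 libraries numbered 1 the calls were 5 in UB, 5 in SP and 4 in NP, where 44.0% of 13602, 21.5% of 13439 and 17.0% of 13256 genes were called. Cdkn1a was then lower at E12.5 by 2.27 in SP and 1.38 in NP on the log2 scale (limma adjusted p = 0.000397 and 0.00229), and Zmat3 was higher by 0.54 and 0.30 (limma adjusted p = 0.0259 and 0.0419). In UB, the group titled E12.5 had Cdkn1a lower by 0.27 and Zmat3 higher by 0.48 (limma adjusted p = 0.0297 and 0.000347), and both directions with age turn if the stated cell source is right. Mdm2 stood at 110, 158 and 169 normalised CPM in UB, SP and NP library 1 against means of 70.5, 65.0 and 75.2 in the other 3, and Bbc3 at 52.97, 75.3 and 101 against 39.6, 18.3 and 36.4. Zmat3 was low in each, at 37.7, 25.6 and 36.1 against 68.9, 50.9 and 52.4. Cdkn1a was low in UB library 1, at 114 against 186, and high in those of SP and NP, at 31.3 against 10.03 and 44.9 against 15.4. The integrated stress response genes, a list of 7 described further on, were lowest in library 1 of each cell type, at a summed 1146 normalised CPM in UB (1727 to 1917 in the other 3), 939 in SP (1442 to 1525) and 786 in NP (1495 to 1759). These sums, the marker sums of UB library 1 and the immediate early sums of the other 2 moved with these values, and their part in them was not tested.

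**Figure D3:**
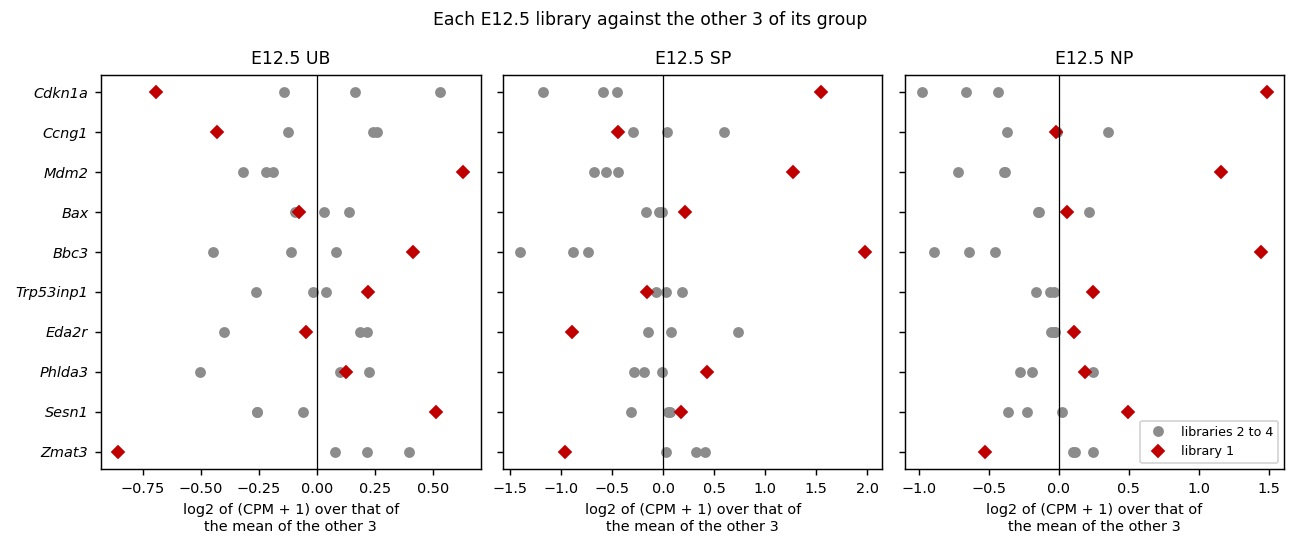
Log2 of normalised CPM + 1 in each E12.5 library over that of the mean of the other 3 libraries of its group, for the 10 targets in UB, SP and NP, with library 1 as red diamonds and libraries 2 to 4 as grey points. Mdm2, Bbc3, Sesn1 and Phlda3 lie to the right and Zmat3 and Ccng1 to the left in all 3 libraries numbered 1, with Ccng1 close to 0 in NP.

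The mRNA of p53 itself was not higher in eUB by the test. Trp53 stood at 249, 208, 189 and 193 normalised CPM in eUB and 290.1, 275, 279.7 and 289.5 in E11.5 UB, lower in eUB by 0.44 ± 0.09 SE on the log2 scale (limma adjusted p = 0.002). Against E12.5 UB, at 158, 195, 203 and 203, it was not called (0.14 ± 0.12 SE, limma adjusted p = 0.355). In the mesenchymes it fell far more, from 269, 360.0, 357 and 354 in E11.5 NP to 29.1, 35.6, 39.9 and 36.5 in iNP, and from 233, 241, 269 and 284 in E11.5 SP to 34.2, 45.4, 37.8 and 36.2 in iSP. These differences were -3.21 ± 0.13 SE and -2.71 ± 0.11 on the log2 scale (limma adjusted p = 7.91e-08 and 9.88e-08), and the contrast with UB was called against both NP (2.77) and SP (2.27). Mdm4, the MDM2 relative that inhibits p53, was not called in eUB (0.18, limma adjusted p = 0.584) or iNP (-0.28, limma adjusted p = 0.236) and was higher in iSP (0.36, limma adjusted p = 0.0297), each against E11.5. The sum of the 10 targets was 1613 to 1849 normalised CPM in eUB, 575 to 637 in E11.5 UB, 263 to 277 in iSP and 289.5 to 315 in iNP.

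**Figure D4:**
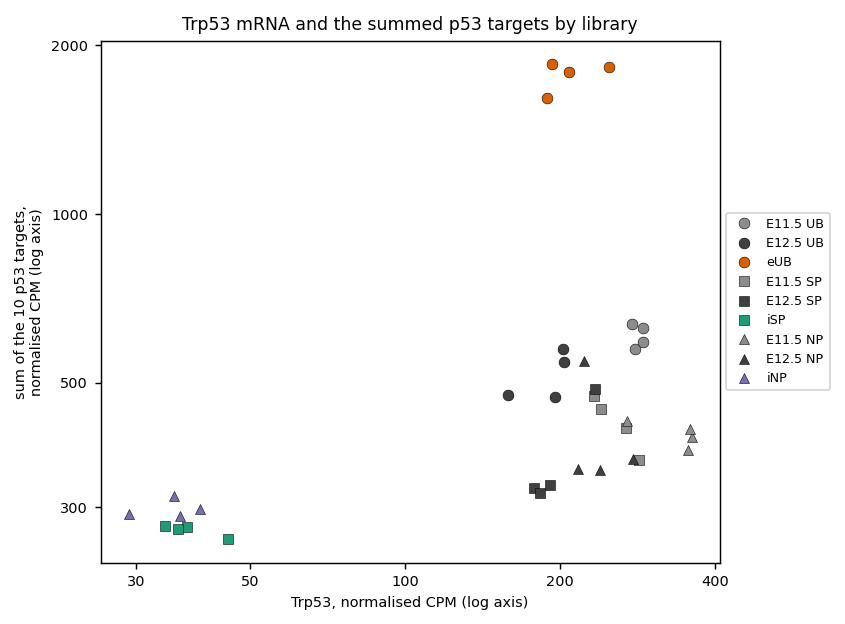
Trp53 (x) and the sum of the 10 p53 targets (y) in each of 36 libraries, in normalised CPM on log axes, coloured by group with circles for UB, squares for SP and triangles for NP. The eUB libraries lie highest at a Trp53 level near that of E12.5 cells, and iSP and iNP lie at the lowest Trp53 and lowest summed targets.

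Among 15 genes for p53, its relatives and its regulators, 4 of 13 were higher in eUB than in E11.5 UB and 2 lower. In iSP 5 of 12 were higher and 5 lower, and in iNP 1 of 12 was higher and 6 lower, all against E11.5. Here and in the lists that follow, genes that passed the filter through 1 group alone are not counted. Over all genes tested, 32.1% were called higher and 28.5% lower in eUB, 35.5% and 32.1% in iSP, and 35.5% and 29.2% in iNP, and the counts of this and the following lists stand beside these shares. Besides Trp53 the genes of this list with the largest mean difference were Cdkn2a and Crebbp. Cdkn2a, whose locus encodes the MDM2 inhibitor ARF as well as p16, passed the filter through the mESC-derived libraries alone, so its levels are given without the test. They were low, at means of 2.16 in eUB, 3.27 in iSP and 2.63 in iNP against at most 0.254 normalised CPM in the E11.5 means, and the counts do not separate the 2 products. Crebbp, a coactivator that acetylates p53, was lower in iSP (-1.15) and iNP (-1.65) and was not called in eUB (-0.72).

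A further list of 32 p53 targets followed the 10 in eUB in part. Of 30 counted, 20 were higher in eUB than in E11.5 UB and 3 lower (32.1% and 28.5% of all genes). In iSP against E11.5 SP 10 of 27 were higher and 10 lower, and in iNP against E11.5 NP 13 of 28 were higher and 7 lower. The genes with the largest mean differences were Sesn2, Btg2 and Gadd45a. Btg2, an antiproliferative cofactor, had the same signs as Cdkn1a, at 1.20 in eUB, -3.06 in iSP and -1.69 in iNP on the log2 scale. Gadd45a, a growth arrest gene, was lower in all 3 (-0.66, -1.59 and -1.07), as was Sesn2 (-1.27, -2.31 and -2.61).

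Sesn2, the paralog of Sesn1, is also a target of the integrated stress response, the pathway in which ATF4 answers amino acid shortage and unfolded proteins. Of the 7 genes of that list, 5 were lower in eUB and 6 each in iSP and iNP against E11.5, with 1 higher in each. Against E12.5 cells 2, 3 and 3 were lower, beside 21.2%, 28.8% and 18.7% of all genes, and 0, 1 and 1 were higher. Sesn2 was not called in eUB against E12.5 UB (-0.79, limma adjusted p = 0.0519). Chac1, which degrades glutathione, was lower by 3.63, 4.15 and 4.71 and Trib3, a pseudokinase induced by ATF4, by 3.19, 1.81 and 2.82 on the log2 scale in eUB, iSP and iNP. Sesn1 rose in the same 3 comparisons, and both sestrins were tested by the same fit.

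Among the other BCL2 family genes, which set the threshold for apoptosis around Bax and Bbc3, 5 of 13 were higher and 3 lower in eUB, 3 of 12 higher and 8 lower in iSP, and 6 of 13 higher and 4 lower in iNP, against E11.5. In eUB these shares were near the 32.1% and 28.5% of all genes. Hrk, a BH3-only gene, was lower in all 3 (-0.47, -2.56 and -2.62), and Bmf (1.04, 2.97 and 0.70) and Bid (1.15, 1.52 and 1.67), also BH3-only genes, were higher, as log2 differences in eUB, iSP and iNP. Among paralogs of the targets and other cyclin-dependent kinase inhibitors, 4 of 11 were higher and 3 lower in eUB, 6 of 11 higher and 4 lower in iSP, and 3 of 10 higher and 6 lower in iNP. Phlda2, an imprinted paralog of Phlda3, was lower in all 3 types, by 3.81, 2.42 and 1.68 on the log2 scale, and Phlda1 was lower in iSP (-3.96) and iNP (-1.32) and not called in eUB (0.23). Against E12.5 UB, Phlda1 was higher in eUB, by 1.88 (limma adjusted p = 1.16e-05). Against E12.5 NP, Phlda2 was not called in iNP (0.41, limma adjusted p = 0.146).

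The eUB with high Cdkn1a also held proliferation genes at higher levels. Of 12 such genes 9 were higher in eUB than in E11.5 UB, where 32.1% of all genes were, none was lower, and the median log2 difference was 0.38. Aurkb (0.87), Ccnb1 (0.93) and Plk1 (0.56), which act in mitosis, were among them. In iSP 5 of the 12 were higher and 1 lower, and in iNP 5 higher and 2 lower, where 35.5% of all genes were higher in each, and the same 3 genes were at 0.98, 0.93 and 1.11 in iSP and 1.21, 1.003 and 1.36 in iNP. The immediate early genes moved with the targets in eUB, where 7 of 8 were higher than in E11.5 UB (32.1% of all genes) and none lower, at a summed 4351 to 6827 normalised CPM against 1708 to 2437. In iSP 3 of the 8 were higher and 3 lower, and in iNP 5 higher and 2 lower. Fos (2.99) and Fosb (2.71) rose in eUB on the log2 scale, and in iNP (2.27 and 2.49) and iSP (1.22 and 0.66), where Cdkn1a fell. Atf3 was not called in eUB against E11.5 UB (0.60, limma adjusted p = 0.0703) and fell by 5.51 in iSP and by 3.94 in iNP. Against E12.5 UB it was higher in eUB, by 1.80 (limma adjusted p = 0.000548). The 7 macrophage markers summed to 2.005 to 5.45 normalised CPM in eUB, with C1qa and Cx3cr1 at 0, and 6 of the 7 passed the filter through E11.5 UB alone. The part of handling, proliferation or other cells in the levels of the p53 targets was not tested.

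Over the 9 group means of log2 of normalised CPM + 1, the genes most like Cdkn1a among 14211 with a mean of at least 1 were Slc22a23 (Pearson r = 0.99), Irak2 (0.98), Ing5 (0.97), Igsf9b (0.97) and Chst7 (0.97). Ing5, a chromatin reader of the inhibitor of growth family, stood at 78.7 normalised CPM in eUB and 22.7 in iSP. Those most like Mdm2 were Zfp868 (0.97), Gm12312 (0.95), Mybl1 (0.94), Asna1 (0.94) and Arl2bp (0.93), and those most like the mean of the 10 were Ap3m2 (0.96), Wnt9a (0.96), Sstr1 (0.96), Ddias (0.96) and Fbxw9 (0.96). Wnt9a, a secreted Wnt ligand, stood at 35.6 normalised CPM in eUB and at most 8.55 in the other 8 groups. The 9 points of each correlation share their libraries and the high eUB value, and the values are descriptions.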

How the data were processed

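RNA was sequenced from 36 sorted samples, 4 in each of 9 groups. Per the authors' methods, stranded mRNA libraries were trimmed with Cutadapt, aligned with STAR and scaled with edgeR. The labels name the genome GRCh38, whereas the identifiers are mouse. The deposited signal values, normalised CPM, came out as whole reads in 100% of cases within 0.05 of an integer once each column's step was known. A second deposited table with group means and the authors' own comparisons was not used. Main test: limma 3.58.1 (moderated, with trend) on log2(normalised CPM + 1), with genes at 1 or more in at least 4 libraries of the comparison and Benjamini-Hochberg adjustment over all genes tested, at 0.05. A log2 difference on this scale understates the change of low genes. Each comparison was fitted on its own groups. The analysis plan had assumed CPM or counts, and the recovered reads entered edgeR 4.0.16 and DESeq2 1.42.0 as alternatives. A test on simulated data recovered the changed genes. The symbols were matched to GENCODE vM21, which held 99.5% of the identifiers. P-values rest on 4 samples a group, from separate pools or batches within that group. Groups of different cell types can share pools or batches, which the tests without a block do not take into account.

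The members and gene lists were chosen with earlier results of these data known. Named genes: the 10 members, Trp53 and Mdm4, the 3 genes of each other list with the largest mean log2 difference over the 3 E11.5 comparisons, and the 5 most correlated genes for each pattern. Replicate numbers were checked for pairing: only for E12.5 NP and SP did every same-numbered pair of libraries deviate together by a correlation over 0.1.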

Additional observations from a re-analysis of the deposited data

Results flagged for a closer look

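In 12 of 90 sets of 4 libraries (10 genes in 9 groups), 1 library lay far from the other 3. Chance gives such a gap in about 1 of 20 sets. Of the 12, 7 were E12.5 libraries numbered 1, all of them the highest of their group: Mdm2 in UB (110), SP (158) and NP (169), Bbc3 in SP (75.3) and NP (101), and Cdkn1a (44.9) and Eda2r (1.82) in NP, in normalised CPM. In iNP library 2, Mdm2 (52.9) and Eda2r (0.557) were lowest and Bax (119) highest. Bbc3 was lowest in E11.5 UB library 3 (47.4) and highest in E11.5 NP library 1 (50.8).

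The difference between mESC-derived and E11.5 cells itself differed between cell types, by limma, in 21 tests of a member. They come from 3 contrasts of the 10 members that share libraries and are not independent. Over all genes 24.2% were called higher and 23.3% lower between UB and SP. These shares were 22.3% and 24.9% between UB and NP, and 17.4% and 11.9% between NP and SP. Between UB and SP the contrasts on the log2 scale were 5.10 for Cdkn1a, 4.91 for Eda2r, 2.90 for Ccng1, 2.86 for Phlda3, 2.46 for Trp53inp1, 1.92 for Zmat3, 1.58 for Mdm2, 1.34 for Bbc3 and 0.75 for Bax. Between UB and NP they were 4.79 for Eda2r, 3.59 for Trp53inp1, 2.88 for Cdkn1a, 2.71 for Ccng1, 2.67 for Zmat3, 2.59 for Phlda3, 1.51 for Mdm2 and 0.53 for Bax. Between NP and SP they were 2.22 for Cdkn1a, 0.90 for Bbc3, -0.75 for Zmat3 and -1.14 for Trp53inp1.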

How the results depend on the processing

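Of 110 log2 differences of single targets followed through the alternatives, 91 were called, 17 of these lost the call under at least 1 alternative and 0 changed sign. The 110 were all differences tested between mESC-derived and ex-fetu cells and, from the other comparisons, only those called. The 91 are therefore no measure of how often targets differed. The number of targets called moved by over 1.5 times in 5 comparisons with few calls. From E11.5 to E12.5, UB (1 called) gave 4 under upper-quartile scaling, 4 by DESeq2 and 5 without the libraries numbered 1. SP (2 called) gave 1 with no filter, 1 under upper-quartile scaling, 1 with the replicate block and 5 without the libraries numbered 1, and NP (1 called) gave 2 by DESeq2, 2 in a fit of all 36 libraries and 4 without the libraries numbered 1. E11.5 NP against SP (0 called) gave 1 with no library factors, 1 under upper-quartile scaling, 2 under quantile normalisation, 2 with the replicate block and 1 with all 36 libraries. E12.5 NP against SP (2 called) gave 1 under upper-quartile scaling, 1 under quantile normalisation, 6 with the replicate block, 5 with all 36 libraries and 4 without the libraries numbered 1. Leaving out single libraries gave 1 to 5 in UB, 0 to 5 in SP and 1 to 4 in NP over time, and 0 to 1 at E11.5 and 0 to 3 at E12.5 for NP against SP. The cause was not tested.

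Values that changed sign were not called under any setting that reversed them. Bax in iSP against E11.5 SP became 0.011 under quantile normalisation. Ccng1 in iNP against E11.5 NP became -0.066 under quantile normalisation, -0.0028 by edgeR and -0.041 by DESeq2, and ran from -0.060 to 0.12 without single libraries. Bax ran from -0.058 to 0.17 there. Against E12.5 and without the libraries numbered 1, Mdm2 in iSP became 0.14, Cdkn1a in iNP 0.13 and Bax in iNP 0.0027. Bax in iNP was also 0.041 with no factors, 0.024 under upper-quartile scaling and 0.13 under quantile normalisation. Without single libraries Mdm2 in iSP ran from -0.31 to 0.14, Ccng1 in iSP from -0.19 to 0.071, Cdkn1a in iNP from -0.45 to 0.13 and Bax in iNP from -0.18 to 0.048.

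Over all genes, edgeR on the recovered reads called 8520 in eUB against E11.5 UB, and limma 8445. The calls between ages moved from 3648 to 2365 with the replicate block and 5982 without the libraries numbered 1 in UB, from 1162 to 2097 (DESeq2), 2987 (all 36 libraries) and 2889 (libraries numbered 1 left out) in SP, and from 850 to 1912, 1528 and 2249 in NP under the same 3. In E12.5 NP against SP the block moved them from 4789 to 7961. The share of calls that were higher went from 53.5% to 40.2% in UB between ages under upper-quartile scaling, from 43.3% to 53.4% in NP with no factors, and from 59.5% to 47.4% in the NP and SP contrast under quantile normalisation. Upper-quartile scaling moved the median of all genes from -0.02 to -0.12 in eUB against iNP and iSP. Only in E12.5 NP and SP did replicate numbers pair the libraries by the rule used, which does not show that other groups shared no pools. In E11.5 NP and SP the correlations of same-numbered libraries were 0.51, -0.35, 0.38 and 0.28. In the promoters, a spacer of 0 bases left 0 targets with a pair of decamers, and with 1 mismatch allowed outside the core there were 2, Cdkn1a and Ccng1, a search chosen after the data were seen.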

Other observations

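Endothelial markers were among the genes that differed between the mESC-derived mesenchymal cells and their E11.5 counterparts. Of 6 tested, limma called 6 higher in iNP and 4 higher in iSP, and 0 lower in both. Over all genes 35.5% were called higher in each, and 29.2% lower in iNP and 32.1% lower in iSP. Their summed level was 49.2 to 83.7 normalised CPM in iNP and 9.71 to 30.2 in E11.5 NP, and 36.7 to 57.7 in iSP and 15.2 to 45.1 in E11.5 SP, where the ranges overlapped. Tek, the angiopoietin receptor, was higher by 2.03 in iNP and 1.20 in iSP on the log2 scale. Kdr, a receptor for vascular endothelial growth factor, was higher by 2.10 and 0.72. Against E12.5 SP, Tek was lower in iSP, at -0.47 (limma adjusted p = 0.0251). There 4 of the 6 were higher and 1 lower, beside 33.3% and 28.8% of all genes. In iNP against E12.5 NP 5 were higher and 0 lower, beside 25.6% and 18.7%. The iNP and iSP had been gated against CD31, the product of Pecam1. In eUB, Cdh5, Emcn and Tie1 had no read in any of the 4 libraries, and 3 of the 4 endothelial markers tested passed the filter through 1 group alone. Of 6 stromal markers, 5 were higher in iNP than in E11.5 NP and 1, Foxd1 (-2.94), was lower, beside 35.5% and 29.2% of all genes. Pdgfrb differed by 3.99 and Pdgfra, whose protein was used in the sort, by 3.15.

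Pluripotency markers were at low levels in the mESC-derived cells. The 5 genes summed to 2.45 to 3.41 normalised CPM in eUB, 5.32 to 7.63 in iSP and 4.21 to 7.12 in iNP, against at most 1.28 in the E11.5 libraries. Most were too low in the E11.5 libraries to pass the filter except through the mESC-derived cells, so no count of calls is given. The E12.5 UB library numbered 1 stood at 24.3, and the other 3 of its group at 0.628 to 0.663.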
